A study of Homo sapiens with 3 samples.

Results

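The transcripts described here are that of MATR3 (matrin 3), the RNA-binding protein that was immunoprecipitated, and those of 5 genes whose products work with it or resemble its partner. These are PTBP1, PTBP2 and PTBP3, which encode the polypyrimidine tract binding (PTB) proteins, and RAVER1 and RAVER2, which encode the raver proteins that bind PTB. A cluster, meaning a stretch of overlapping reads that carry T-to-C changes, belonged to a gene when the deposited tables named that gene. The 6 genes held 314 of 388807 clusters and were 6 of the 13557 genes named in any library. They were chosen by name, with earlier results of these data known.

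MATR3 PAR-CLIP was carried out on wild-type cells of HEK293, an established human embryonic kidney line, with no treatment given in the labels. In PAR-CLIP a photoreactive uridine analogue is crosslinked to the bound protein, and crosslinked positions are read as T-to-C changes. All 3 libraries were biological replicates of the same group, and there was no control library, no MATR3-deficient sample and no measure of RNA level. The identity of the line could therefore not be checked against marker genes, and a gene with more bound RNA cannot be told apart from a gene with more RNA.

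MATR3 is a nuclear matrix protein with tandem RNA recognition motifs and zinc fingers that acts on alternative splicing, largely through introns. PTB proteins bind pyrimidine-rich RNA and mostly repress exons, and both MATR3 and the raver proteins carry short peptide motifs that dock onto an RNA recognition motif of PTB. Many splicing regulators bind their own pre-mRNA, and PTBP1 is known to repress an exon of its own transcript and the homologous exon of PTBP2, whose skipping leads to decay of the mRNA.

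The sequences of regions found in all 3 libraries are shown first. Clusters of the 3 libraries that overlapped by at least 1 nt on a strand were merged into regions, and 5 regions held a cluster of every library. A region spans all the clusters joined in it, so its bases need not be covered in every library. A region of 159 nt in the 3′ untranslated region (UTR) of RAVER1 was the fifth and is not printed. The intron regions lay at chr19:806049-806208 (PTBP1 intron 9, plus strand), chr1:96740263-96740350 (PTBP2 intron 2, plus strand), chr1:96774524-96774742 (PTBP2 intron 5, plus strand) and chr19:10332737-10332820 (RAVER1 intron 1, minus strand) of hg38. The region with most reads among those of MATR3 in more than 1 library, chr5:139309234-139309327 in intron 2 on the plus strand, follows them, with a neighbour in the same intron at chr5:139313650-139313779 that was chosen after its values were seen. Sequences are the transcribed strand of hg38 in DNA letters, 5′ to 3′, and capitals mark TCTT, the core of PTB sites.
PTBP1 intron 9: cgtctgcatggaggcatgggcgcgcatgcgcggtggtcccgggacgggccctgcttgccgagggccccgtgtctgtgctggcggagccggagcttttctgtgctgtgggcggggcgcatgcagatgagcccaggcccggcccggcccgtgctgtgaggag
PTBP2 intron 2: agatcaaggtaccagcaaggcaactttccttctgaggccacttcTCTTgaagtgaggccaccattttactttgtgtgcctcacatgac
PTBP2 intron 5: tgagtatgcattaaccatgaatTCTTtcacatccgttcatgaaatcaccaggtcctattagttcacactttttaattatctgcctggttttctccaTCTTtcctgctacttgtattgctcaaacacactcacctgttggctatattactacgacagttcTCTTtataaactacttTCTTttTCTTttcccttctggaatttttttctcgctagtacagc
RAVER1 intron 1: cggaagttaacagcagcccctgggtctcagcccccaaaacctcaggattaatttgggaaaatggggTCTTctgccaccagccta
MATR3 intron 2, upstream: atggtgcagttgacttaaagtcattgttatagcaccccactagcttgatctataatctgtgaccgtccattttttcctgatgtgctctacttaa
MATR3 intron 2, downstream: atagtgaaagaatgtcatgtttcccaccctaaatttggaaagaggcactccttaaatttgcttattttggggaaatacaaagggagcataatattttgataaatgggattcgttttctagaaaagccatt

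These stretches differed in base content. The PTBP2 intron 5 region held 5 copies of TCTT and was 66.7% C and T. Its full length came from the cluster of replicate 2, with replicate 3 at chr1:96774663-96774693 and replicate 1 at chr1:96774691-96774719. The PTBP1 intron 9 region held no TCTT and was 47.5% C and T, and neither of the MATR3 regions shown held one. Of the MATR3 regions in 2 libraries that are not printed, chr5:139306231-139306295 held TCTT, as did both clusters of chr5:139287665-139287778. The remaining ones held none. In the RAVER1 intron 1 region the clusters of replicates 1 and 2 (chr19:10332772-10332820 and chr19:10332738-10332768) did not overlap each other.

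The second set is shown because clusters lay directly on a known regulated exon. PTBP2 exon 10 is 34 nt long and is the exon that PTBP1 represses. In replicate 1 a cluster of 23 reads covered the 3′ end of intron 9 and the first bases of the exon (chr1:96806337-96806428), and in replicate 2 a cluster of 7 reads began inside the exon and ran into intron 10 (chr1:96806421-96806462). The merged stretch, chosen after its values were seen, is chr1:96806337-96806462 on the plus strand, with the exon in capitals.
PTBP2 exon 10: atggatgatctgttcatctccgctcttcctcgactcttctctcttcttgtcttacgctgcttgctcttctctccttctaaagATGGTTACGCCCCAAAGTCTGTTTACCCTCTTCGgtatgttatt

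It held 7 copies of TCTT, counted in either case of letter, and was 71.4% C and T. Replicate 3 had no cluster over the exon.

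Replicate 1 held 133088 clusters, replicate 2 131679 and replicate 3 124040, and clusters named for a gene held 1448303, 1328093 and 1358924 reads in the same order. The 6 genes took 0.122%, 0.0823% and 0.132% of those reads. Every listed cluster had at least 4 reads, at least 20 nt and at least 2 positions with conversions, so weaker sites were not seen, and a library without a cluster of a gene may still hold reads of it. Read numbers exceeded those of distinct reads, at 2.98, 2.38 and 2.96 reads per distinct read over gene-annotated clusters in replicates 1, 2 and 3. They may include copies made by PCR.

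Reads along the MATR3 transcript were numerous in 2 libraries and fewer in the other. MATR3 (ENSG00000015479.20 and the overlapping read-through gene ENSG00000280987.4, chr5:139273752-139331677, plus strand, 57.9 kb together) had 27 clusters of 621 reads in all in replicate 1, 23 of 240 in replicate 2 and 36 of 535 in replicate 3. To compare genes, reads were scaled to 1000000 reads over the gene-annotated clusters of a library (RPM) and divided by gene length in kb. MATR3 stood at 7.40, 3.12 and 6.80 RPM per kb, a mean of 5.77 ± 2.32 (SD, n = 3). Replicate 2 was the low library. The mean lay at percentile 89.2 of the 10627 protein-coding genes that had a cluster in any library and could be matched to an annotated length, whose median was 0.913. Coding genes with no cluster are not in these percentiles.

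PTBP1, the PTB protein of most non-neuronal cells (ENSG00000011304.22, chr19:797075-812327, plus strand, 15.3 kb), had 16, 12 and 18 clusters with 379, 261 and 458 reads. Its read density was the highest of the 6 genes in each library, at 17.2, 12.9 and 22.1 RPM per kb, a mean of 17.4 ± 4.61 (SD, n = 3) and percentile 98.9 of coding genes. No library value of PTBP1 overlapped those of another member.

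PTBP2, the neuronal paralog (ENSG00000117569.20, chr1:96721665-96823738, plus strand, 102 kb), had the most clusters of the 6 genes, with 33, 33 and 45 clusters and 489, 363 and 549 reads. Per length it stood lower, at 3.31, 2.68 and 3.96 RPM per kb (3.31 ± 0.640, SD, n = 3, percentile 78.8). PTBP3, a PTB paralog known from blood cells (ENSG00000119314.16, chr9:112217716-112333664, minus strand, 116 kb), had 10, 8 and 12 clusters with 74, 70 and 120 reads. Its 0.441, 0.455 and 0.762 RPM per kb (0.552 ± 0.181, SD, n = 3, percentile 39.5) lay below 0.913, the median of those coding genes, in every library.

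The raver genes stood far apart from each other. RAVER1, a nuclear PTB corepressor (ENSG00000161847.15, chr19:10316212-10333529, minus strand, 17.3 kb), had 11, 12 and 9 clusters with 161, 159 and 112 reads. Its density was 6.42, 6.91 and 4.76 RPM per kb (6.03 ± 1.13, SD, n = 3, percentile 89.7). RAVER2, its paralog (ENSG00000162437.15, chr1:64745075-64833232, plus strand, 88.2 kb), had 6 clusters with 41 reads in replicate 1, none in replicate 2 and 3 clusters with 26 reads in replicate 3. Its mean density, with replicate 2 at 0, was 0.179 ± 0.164 RPM per kb (SD, n = 3, percentile 20.8). Thus 5 of the 6 genes had a cluster in every library, where 65.7% of all named genes did.

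**Figure D1:**
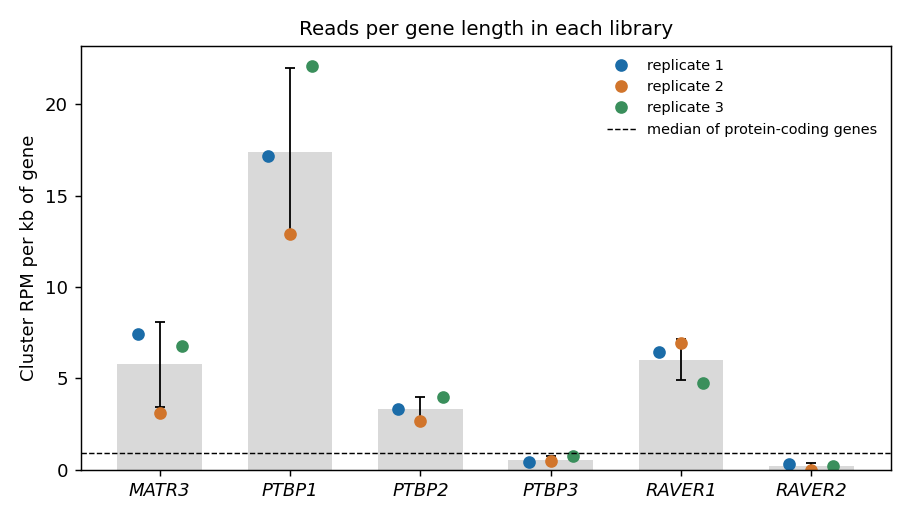
Reads in clusters as RPM per kb of gene (vertical axis) for the 6 genes, with grey bars for the mean, lines for ±1 SD, points for the 3 libraries and a dashed line at the median of protein-coding genes (0.913). PTBP1 lies between 12.9 and 22.1, above every point of the other genes, and PTBP3 and RAVER2 lie below the dashed line.

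The order of mean density was PTBP1, RAVER1, MATR3, PTBP2, PTBP3 and RAVER2. RAVER1 and MATR3 did not differ beyond their spread, with a difference of MATR3 minus RAVER1 of -0.258 ± 3.11 RPM per kb (SD, n = 3; exact two-sided sign-flip permutation test, p = 1). MATR3 was above RAVER1 in 2 libraries and below it in replicate 2, and without replicate 2 the difference turned to 1.51. MATR3 was below PTBP1 in 3 of 3 libraries, with a difference of -11.61 ± 3.20 RPM per kb. It was above PTBP2 in 3 of 3 libraries, by 2.46 ± 1.86. With distinct reads, or with the gene proper alone (chosen after seeing the data), it was no longer above PTBP2 in every library, and the mean differences were 2.54 and 1.84 (exact two-sided sign-flip permutation test, p = 0.5 for both). MATR3 was above PTBP3 by 5.22 ± 2.26 and above RAVER2 by 5.59 ± 2.16. Each of the 4 differences, from PTBP1, PTBP2, PTBP3 and RAVER2, had p = 0.25 in the exact two-sided sign-flip permutation test, which is the smallest value that 3 libraries allow, and 0.55 after Benjamini-Hochberg adjustment over 11 tests, apart from the 6 motif tests that were adjusted on their own. The library values of MATR3 and PTBP2 overlapped, since MATR3 had 3.12 in replicate 2 and PTBP2 had 3.96 in replicate 3.

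Counted as clusters rather than reads, PTBP1 again led with 1.01 ± 0.20 clusters per kb, followed by RAVER1 with 0.616 ± 0.0882 and MATR3 with 0.495 ± 0.115 (SD, n = 3). PTBP2 had 0.362 ± 0.0679, PTBP3 0.0862 ± 0.0172 and RAVER2 0.0340 ± 0.0340 clusters per kb. The protein-coding median was 0.133.

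The MATR3 clusters fell into 2 stretches whose read densities overlapped. In GENCODE a read-through gene (chr5:139273752-139331671) begins upstream of the MATR3 gene proper (chr5:139293674-139331677) and also spans nearly all of it. The deposited name MATR3 covered both, and clusters in the gene proper lie within both. The gene proper (38.0 kb) held 19, 8 and 20 clusters with 439, 87 and 298 reads, or 7.98, 1.72 and 5.77 RPM per kb (5.16 ± 3.17, SD, n = 3). The upstream stretch (19.9 kb) held 8, 15 and 16 clusters with 182, 153 and 237 reads, or 6.31, 5.78 and 8.75 RPM per kb (6.95 ± 1.59, SD, n = 3). In read density replicate 2 was the lowest library in both stretches. In clusters per kb the upstream stretch was lowest in replicate 1, at 0.402 against 0.753 and 0.803 in replicates 2 and 3. Of the 39 upstream clusters, 18 lay inside SNHG4, a long non-coding RNA gene on the same strand (chr5:139274102-139284899) that hosts small nucleolar RNAs, and no cluster was named SNHG4. Those 18 held 135, 46 and 105 reads, or 8.63, 3.21 and 7.16 RPM per kb of SNHG4, and replicate 2 was the lowest there too. Reads of MATR3 and SNHG4 precursors cannot be told apart there.

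**Figure D2:**
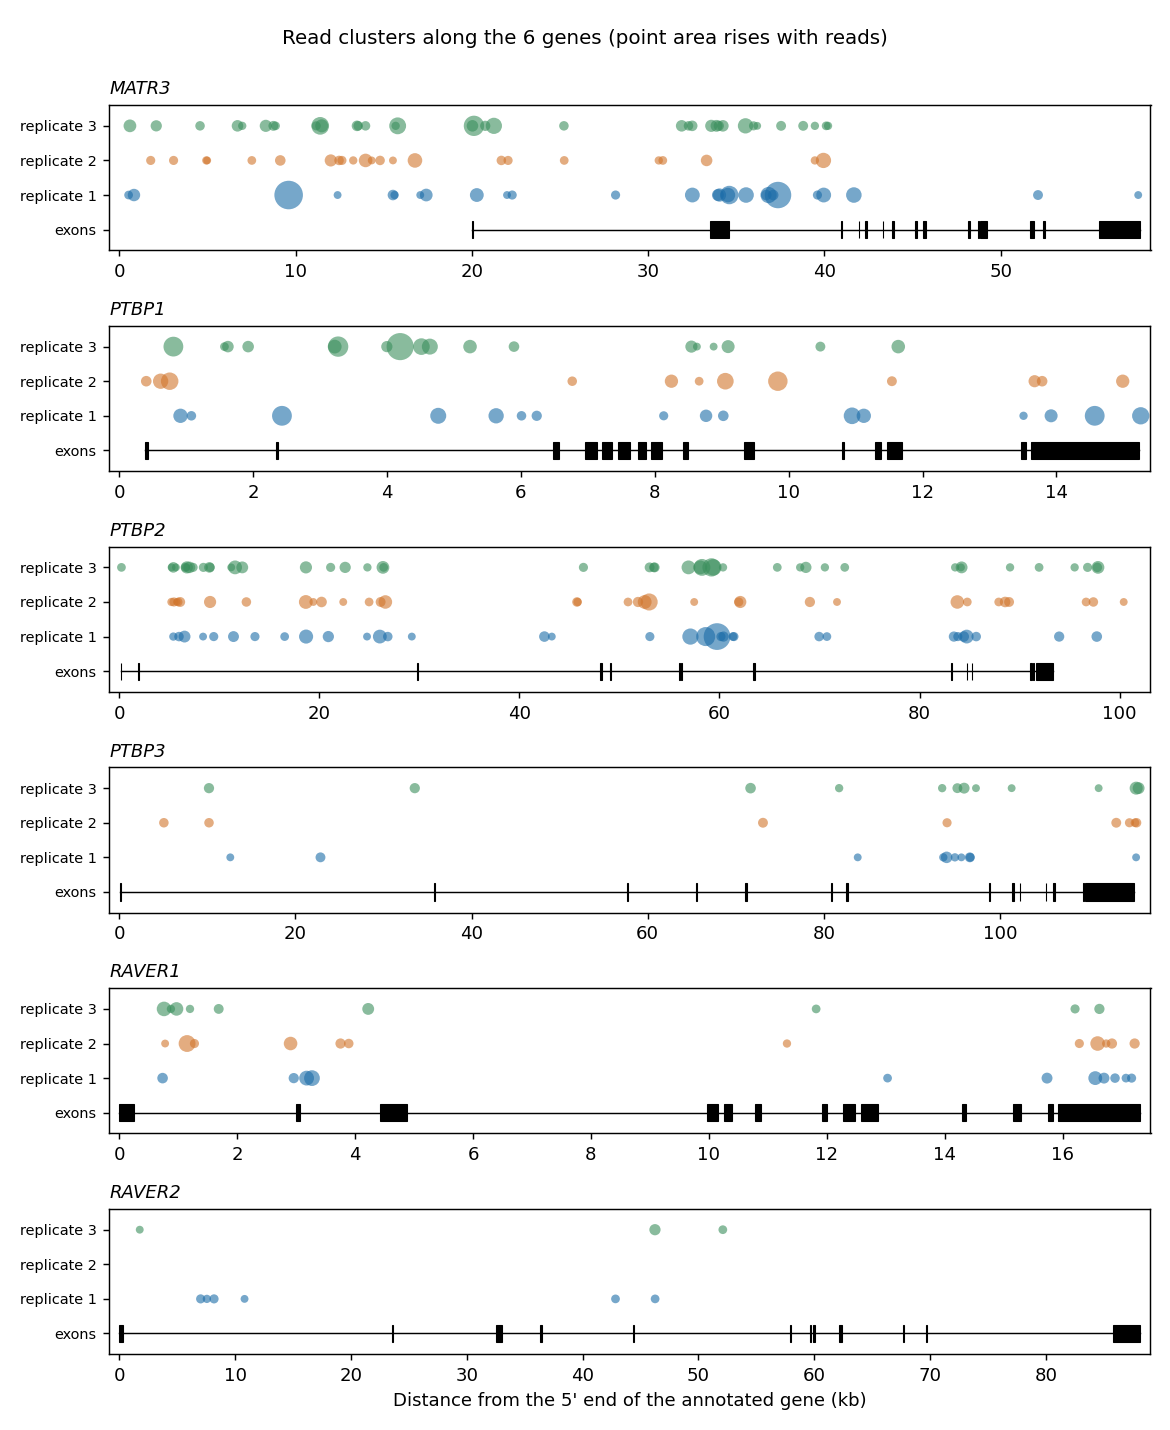
Position of every cluster of the 6 genes as distance from the 5′ end of the annotated gene (horizontal axis, kb), 1 line per library, with black boxes for exons of the MANE Select transcript and point area rising with reads. MATR3 clusters lie upstream of and over the first 2 introns with few beyond, PTBP2 clusters gather in intron 2 and intron 7, and RAVER2 has none in replicate 2.

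The cluster with most reads lay at a different position in each library that had one, for every gene. Ties included there were 20 such clusters, of which 6 overlapped a cluster of another library. In MATR3 they were a cluster of 110 reads in the upstream stretch (replicate 1, chr5:139283283-139283430, inside SNHG4), one of 29 reads in intron 2 (replicate 2, chr5:139313665-139313736) and one of 54 reads in intron 1 (replicate 3, chr5:139293826-139293913), 21 nt from the first exon, which the deposited table calls 5′ UTR. In PTBP1 they held 51 reads at the start of intron 2 and as many in the 3′ UTR (replicate 1, chr19:799440-799568 and chr19:811613-811681), 49 reads in intron 10 (replicate 2, chr19:806888-806938) and 99 reads in intron 2 (replicate 3, chr19:801177-801363). In PTBP2 they held 96 reads in intron 7 (replicate 1, chr1:96781319-96781526), 37 reads in intron 5 (replicate 2, chr1:96774524-96774742) and 43 reads in intron 7 (replicate 3, chr1:96780809-96780931). The intron 5 cluster overlapped clusters of both other libraries.

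Those of the other genes were smaller. In PTBP3 they held 15 reads in intron 7 (replicate 1, chr9:112239689-112239729), 10 reads in the 3′ UTR and as many in intron 5 (replicate 2, chr9:112220425-112220462 and chr9:112260537-112260599) and 20 reads in the 3′ UTR of a longer transcript (replicate 3, chr9:112218163-112218206). In RAVER1 they held 31 reads in intron 2 (replicate 1, chr19:10330232-10330292), 36 reads in intron 1 (replicate 2, chr19:10332322-10332439) and 26 reads in intron 1 (replicate 3, chr19:10332737-10332806), the last of which overlapped clusters of both other libraries. In RAVER2 they held 8 reads each at a pair of places in intron 1 (replicate 1, chr1:64752079-64752107 and chr1:64753221-64753276) and 14 reads in intron 5 (replicate 3, chr1:64791309-64791340).

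Introns held most clusters of each gene. The deposited annotation put 73 of 86 MATR3 clusters, 35 of 46 PTBP1 clusters, 98 of 111 PTBP2 clusters, 22 of 30 PTBP3 clusters, 20 of 32 RAVER1 clusters and 9 of 9 RAVER2 clusters in introns. Over all gene-annotated clusters the intron share was 83.5% ± 0.421 (SD, n = 3). In MATR3 the share was 77.8%, 100% and 80.6% in replicates 1, 2 and 3, and in the 5 other genes together 81.6%, 72.3% and 86.2%. MATR3 was higher in replicate 2 and lower in the other two, a difference of 6.08 ± 18.7 percentage points (SD, n = 3; exact two-sided sign-flip permutation test, p = 1). Without replicate 2 the difference was -4.73, and with the gene proper alone, a choice made after seeing the data, it was -0.558.

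**Figure D3:**
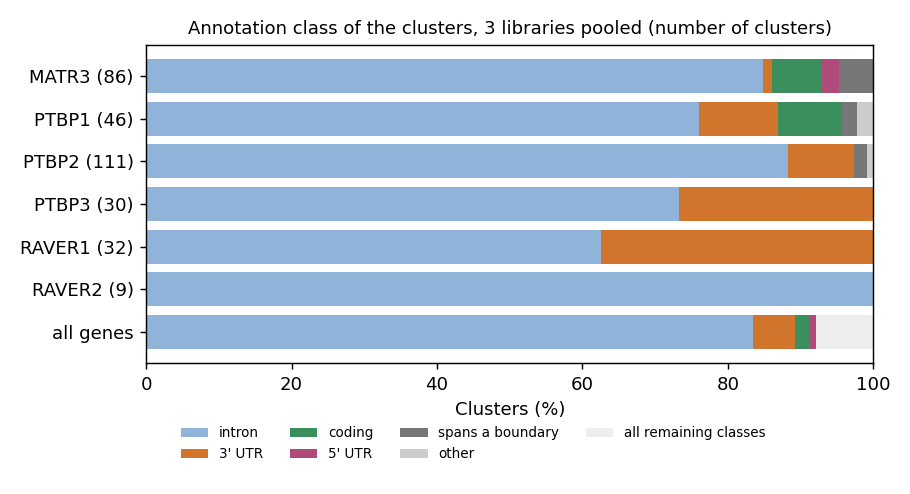
Share of clusters in each deposited annotation class (horizontal axis, %), 3 libraries pooled, for the 6 genes (numbers of clusters in brackets) and for all gene-annotated clusters as a mean over libraries. Introns lead in each gene, 3′ UTR clusters make up 12 of 32 in RAVER1 and 8 of 30 in PTBP3, and MATR3 has 1.

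The exonic clusters differed in place between the genes. MATR3 had 6 coding clusters, 3 in replicate 1 and 3 in replicate 3, and each lay in exon 2, the long exon with the start codon. Only 1 MATR3 cluster, with 5 reads in replicate 1, lay in the 3′ UTR. RAVER1 had 5, 5 and 2 clusters in its 3′ UTR and none in its coding exons. Per length of its MANE Select transcript, the reference isoform, the RAVER1 3′ UTR (1.25 kb) held 4.02, 4.02 and 1.61 clusters per kb (3.21 ± 1.39, SD, n = 3) against 0.434, 0.506 and 0.506 in its introns (0.482 ± 0.0417). The lowest 3′ UTR value was thus above the highest intron value. PTBP3 had 1, 4 and 3 clusters in 3′ UTRs, 5 of which lay beyond the end of its MANE Select transcript. The share was 28.3% ± 20.2 (SD, n = 3), against 5.84% ± 0.411 over all genes. The MANE Select 3′ UTR of PTBP3 (5.42 kb) held 0, 0.369 and 0.185 clusters per kb (0.185 ± 0.185). PTBP2 had 2, 3 and 5 clusters in 3′ UTRs, 9 of which lay beyond the end of its MANE Select transcript. PTBP1 had 3, 2 and 0.

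Within the introns, clusters were unevenly spread. Intron 2 of MATR3 (6.35 kb) made up 19.3% of the intron length of its MANE Select transcript and held 18 of the 38 intron clusters there, 8, 2 and 8 per library, with 260, 35 and 81 reads. Intron 1 (13.4 kb, 40.9% of the length) held 5, 6 and 7 clusters with 71, 52 and 143 reads. Intron 3 and intron 13 held 1 cluster each, both in replicate 1, and no other MATR3 intron held any in the 3 libraries. Clusters were thus found in the first 2 introns in every library, and further downstream in replicate 1 only. Of the 38 intron clusters, 6 (15.8%) lay within 500 nt of a MANE Select exon, where 30.3% of the intron bases lie. Counting exons of every annotated transcript, 24 lay within 500 nt of one and 19 touched one, 14 of these in intron 2. By the same count 15 of 36 intron clusters of PTBP1, 8 of 99 of PTBP2 and 2 of 20 of RAVER1 touched an exon. Among the intron regions printed above, those of PTBP1 intron 9 and MATR3 intron 2, downstream, also touched an exon of some annotated transcript.

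PTBP2 had 48 of its 99 intron clusters in intron 2 (14, 14 and 20), which is 30.9% of its intron length. Intron 7, with 7.91% of the length, held 7, 3 and 6 clusters and 210, 30 and 165 reads. Replicate 2 was again the low library there. Intron 9, which precedes the regulated exon 10 and is 1.64% of the length, held 4, 1 and 3 clusters with 54, 22 and 27 reads. All 8 of these touched an exon of some annotated transcript, and no other intron cluster of PTBP2 did. PTBP1 had 8 of 36 intron clusters in intron 9 (2, 2 and 4), which is 7.19% of its length, and 13 in intron 2 (5, 0 and 8). Those in PTBP1 intron 9 all touched an exon of some annotated transcript as well. PTBP3 had 12 of 22 in intron 7 (7, 1 and 4; 14.8% of the length). RAVER1 had 11 of 20 in intron 1 (2, 4 and 5; 20.0% of the length) and none in intron 3, its longest at 36.7% of the length.

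The 34-nt exon that PTB controls was compared across the 3 PTB genes. Within 1500 nt of PTBP2 exon 10 (chr1:96806419-96806452) there were 5, 2 and 3 clusters with 63, 29 and 27 reads, or 10 of 111 clusters of the gene. Within the same distance of PTBP1 exon 11 (chr19:807869-807902), the homologous exon whose skipping lowers PTBP1, there were 2, 2 and 2 clusters with 60, 59 and 32 reads. These were 6 of 46 clusters of the gene, and none lay over the exon. They include a cluster of 10 reads in replicate 2 (chr19:808597-808637) and one of 22 reads in replicate 3 (chr19:808696-808728). Both of those lay in coding exon 13, and the others in introns. At PTBP3 exon 10 (chr9:112231380-112231413) there was 1 cluster of 5 reads, in replicate 3. All 3 libraries had clusters near the PTBP1 and PTBP2 exons, and clusters touching the exon were found for PTBP2 only, in replicates 1 and 2. The 3 genes differ in overall density and in length (15.3 kb for PTBP1, 102 kb for PTBP2 and 116 kb for PTBP3). A window of the same width therefore covers a larger part of PTBP1, and no test of the difference between the exons was made.

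**Figure D4:**
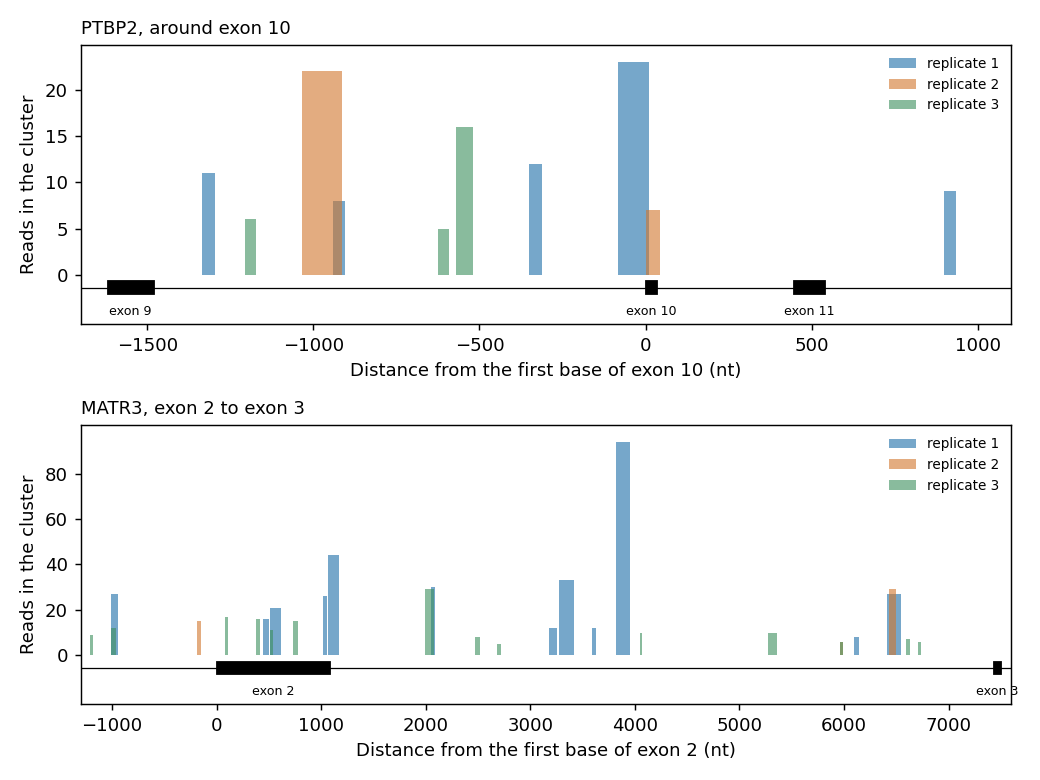
Reads per cluster (vertical axis) against distance in nt from the first base of PTBP2 exon 10 (top) and of MATR3 exon 2 (bottom), with bars as wide as the clusters, coloured by library, and black boxes for exons. The PTBP2 exon is touched by a cluster of 23 reads from replicate 1 and one of 7 reads from replicate 2, and MATR3 intron 2 holds 18 clusters, 2 of them from replicate 2.

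Most regions of these genes were found in a single library. The 314 clusters merged into 282 regions, of which 22 were found in 2 libraries and 5 in all 3, or 9.57% in more than 1 library. Over all genes, 11.2% of 298170 regions were found in 2 or 3 libraries and 1.21% in all 3. MATR3 had 78 regions, 8 of them in 2 libraries and 0 in 3. PTBP1 had 42 regions (2 in 2 libraries and 1 in 3), PTBP2 101 (6 and 2), PTBP3 28 (2 and 0), RAVER1 25 (3 and 2) and RAVER2 8 (1 and 0).

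The regions found in all libraries were modest in reads. That of PTBP1 had 12, 35 and 20 reads, that of PTBP2 intron 2 had 24, 23 and 17, and that of PTBP2 intron 5 had 8, 37 and 10. In RAVER1 the intron 1 region had 12, 5 and 26 reads, and the 3′ UTR region (chr19:10316869-10317027) had 23, 26 and 11. In MATR3 the region printed as upstream in intron 2 had 30, 0 and 29 reads, and the downstream one 27, 29 and 0. A MATR3 region in coding exon 2 (chr5:139307746-139307855) had 21, 0 and 11 reads. For PTBP3 the region with most reads in more than 1 library lay in a 3′ UTR (chr9:112218163-112218211) with 5, 0 and 20 reads, and for RAVER2 in intron 5 (chr1:64791309-64791353) with 7, 0 and 14. No cluster of these genes had the same start and end in 2 libraries.

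Taken per cluster, 18.5%, 21.7% and 16.7% of MATR3 clusters overlapped a cluster of another library, against 17.1%, 23.1% and 17.2% for the 5 other genes. Among those RAVER1 had 36.4%, 41.7% and 33.3%, above all gene-annotated clusters (21.5%, 21.2% and 22.5%) in each library, a difference that was not tested. The difference of MATR3 minus the 5 other genes, -0.166 ± 1.42 percentage points (SD, n = 3), was smaller than its spread (exact two-sided sign-flip permutation test, p = 1). With the gene proper alone, a choice made after seeing the data, it was 8.71 points. All 6 genes together had 17.5%, 22.7% and 17.1%, and all other genes 21.5%, 21.2% and 22.5%, a difference of -2.65 ± 3.68 percentage points (exact two-sided sign-flip permutation test, p = 0.5, adjusted p = 0.688). Replicate 2 was higher than the other genes and replicates 1 and 3 lower. Without replicate 1 a cluster had fewer libraries to overlap, the other genes stood at 12.04%, and the difference was 1.60. When 50% of both clusters had to overlap, it was -0.367. With stricter cluster sets it was farther from 0 and negative in every library, at -7.60 for clusters of at least the library's median number of reads, -7.37 for at least 3 distinct reads and -8.16 for at least 3 conversion locations, and against other genes' clusters of the same length, chosen after seeing the data, it was -5.04 (exact two-sided sign-flip permutation test, p = 0.25 for each, the smallest possible).

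Conversion per T was compared between MATR3 and its partners. Conversion events made up 9.29%, 10.8% and 9.99% of the T positions read in MATR3 clusters, against 9.996%, 11.6% and 11.8% in the 5 other genes. MATR3 was lower in 3 of 3 libraries, with a difference of -1.12 ± 0.630 percentage points (SD, n = 3; exact two-sided sign-flip permutation test, p = 0.25, the smallest possible, adjusted p = 0.55). Counted instead as reads that carry a T-to-C change, in percent, the difference was -0.352 (exact two-sided sign-flip permutation test, p = 1), and MATR3 was higher in replicate 2, at 88.8% against 82.0%. PTBP2 had 8.85% ± 0.815, PTBP1 14.5% ± 2.43, PTBP3 11.7% ± 0.732 and RAVER1 15.0% ± 0.756, and all gene-annotated clusters had 10.96% ± 0.364 (SD, n = 3).

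Of the 6 genes PTBP2 had the highest share of intron clusters with TCTT. The motif was searched in the transcribed strand of intron clusters only, together with ATCTT, which is AUCUU, the preferred motif of MATR3, in DNA letters and always contains TCTT, and CTCTCT, a PTB motif. TCTT was found in 59 of 98 PTBP2 intron clusters (60.2%), or 66.7%, 69.0% and 48.7% in replicates 1, 2 and 3. Windows of the same lengths at every position of its own introns held it in 28.0%, 32.0% and 26.9%. The difference was 32.5 ± 9.26 percentage points (SD, n = 3), higher in 3 of 3 libraries. This comparison was chosen after seeing the data, and its p was 0.25 (exact two-sided sign-flip permutation test, the smallest possible; adjusted p = 0.75 over 6 genes). Intron clusters of all other genes with the same lengths held TCTT in 42.5%. A cluster needs at least 2 converted T positions to be listed, and windows do not. The part of this rule in the difference was not tested.

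In MATR3's own intron clusters the share lay between both backgrounds when the libraries were pooled. TCTT was present in 24 of 73 (32.9%), against 27.6% of windows of its MANE Select introns and 44.6% of same-length intron clusters of other genes. The library values were 38.1%, 17.4% and 41.4%, with replicate 2 below its windows (25.4%) and replicates 1 and 3 above theirs (31.5% and 26.4%). The windows do not cover the upstream stretch, where 39 of the MATR3 clusters lie. All of these but 1 (chr5:139278310-139278348) are among the 73 intron clusters. Clusters and windows of MATR3 are therefore not compared over the same sequence. In PTBP1 TCTT was present in 10 of 35 clusters (28.6%, windows 25.0%, other genes 54.7%), in PTBP3 in 7 of 22 (31.8%, 25.4% and 37.9%), in RAVER1 in 5 of 20 (25.0%, 16.0% and 44.1%) and in RAVER2 in 2 of 9 (22.2%, 20.0% and 35.1%). RAVER1, like PTBP2, was above its own windows in 3 of 3 libraries, by 0.79, 11.4 and 13.8 percentage points (exact two-sided sign-flip permutation test, p = 0.25, adjusted p = 0.75). T made up 22.4% of PTBP1 intron bases, 33.4% of those of MATR3 and 34.3% of those of PTBP2.

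**Figure D5:**
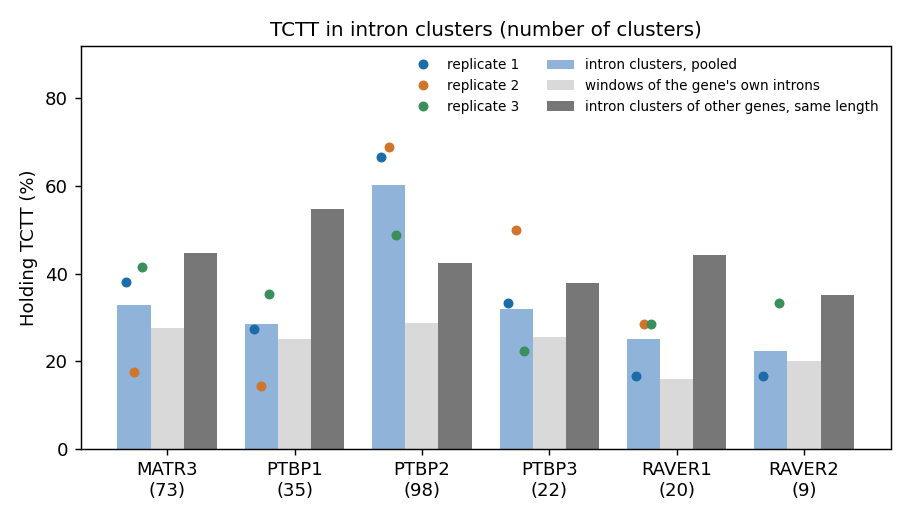
Share of intron clusters that hold TCTT (vertical axis, %) for the 6 genes (numbers of clusters in brackets), with blue bars for the 3 libraries pooled, points for each library, light bars for windows of the same lengths in the gene's own introns and dark bars for same-length intron clusters of other genes. PTBP2 stands at 60.2% against 28.7% for its windows, and the blue bars of the other 5 genes lie between 22.2% and 32.9%.

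ATCTT was present in 19 of 98 PTBP2 intron clusters (19.4%), against 7.83% of its own intron windows and 9.77% of same-length clusters of other genes. In MATR3 it was present in 8 of 73 (10.96%), against 7.65% of windows of its MANE Select introns and 10.7% in other genes. In PTBP1 it was present in 1 of 35 (2.86%, windows 4.003%, other genes 14.3%). In RAVER1 it was present in 0 of 20 (windows 2.83%, other genes 11.1%). PTBP3 had it in 2 of 22 (9.09%, windows 5.97%, other genes 8.12%). RAVER2 had it in 0 of 9 (windows 4.14%, other genes 7.31%). None of these single-gene ATCTT differences was tested. Over the 6 genes together ATCTT was present in 13.3%, 8.57% and 12.5% of intron clusters, against 10.1%, 9.40% and 9.57% in other genes, a difference of 1.76 ± 2.24 percentage points (SD, n = 3; exact two-sided sign-flip permutation test, p = 0.5). It was 0.059 for clusters of at least the library's median number of reads, 0.563 for at least 3 distinct reads, 0.582 for at least 3 conversion locations and 0.771 against same-length clusters. CTCTCT was present in 7 of the 257 intron clusters (2.72%), against 5.11% of same-length clusters of other genes. C and T together made up a mean of 59.1%, 53.7% and 54.8% of the intron clusters' bases, against 57.8%, 56.3% and 57.9% in other genes (difference -1.47 ± 2.42 percentage points, SD, n = 3; exact two-sided sign-flip permutation test, p = 0.5).

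Other genes of the same machinery were counted for reference. Of 16 such genes, 15 had clusters in every library, against 65.7% of all named genes, and their median was 4.88 RPM per kb. All 8 genes of LASR, the large assembly of splicing regulators that contains MATR3, RBFOX2 and HNRNPM, had clusters in every library, with a median of 7.08 and the highest value, 11.4 ± 1.77 (SD, n = 3), for HNRNPM. The PTB paralogs HNRNPL and HNRNPLL stood at 6.24 ± 1.07 and 1.04 ± 1.24 RPM per kb. The paraspeckle proteins SFPQ, NONO and PSPC1 had 5.90 ± 2.19, 3.85 ± 0.773 and 0.971 ± 0.318. Of 3 relatives with the same kind of zinc finger as MATR3, ZNF638 had 49, 58 and 50 clusters (3.36 ± 0.487), CIZ1 had 1, 2 and 2 (0.199 ± 0.0929), and RBM20, a muscle splicing factor, had 1 cluster of 5 reads, in replicate 1. The 3 genes whose densities in the 3 libraries lay nearest to those of MATR3, by Euclidean distance on the log2 scale over 7793 other genes, were GINS2 (distance 0.06), ZNF326 (0.23) and PDCD11 (0.25).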

How the data were processed

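MATR3 PAR-CLIP was measured in 3 biological replicates of HEK293, per the labels, and p-values therefore measure the spread between these libraries. The authors deposited 1 cluster table per library. Per the file headers it gives whole read, distinct read and conversion counts, the fraction of reads with T-to-C, a conversion specificity (on a log10 scale by its values) and a mode score, and neither the specificity nor the score was used here. The build is hg38, per the submitters' processing notes, and the aligner, cluster caller and annotation release are not given in the sources used here. The sequences of all 314 clusters of the 6 genes equalled hg38.

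Members, gene lists and motifs were chosen with earlier results of these data known. Gene spans came from GENCODE release 44 by symbol (84.6% of 13557 names matched), and introns and exons from MANE Select transcripts, with a cluster placed by its midpoint. Named were all 6 members, the cluster with most reads of each gene in each library, the regions found in all libraries or, failing that, the region in 2 libraries with most reads, and the 3 genes nearest to MATR3. Sequences printed are whole merged regions read from hg38. Within-library differences were tested with the exact two-sided sign-flip permutation test and Benjamini-Hochberg adjustment over 11 tests, and over 6 further motif tests chosen after seeing the data, after the scripts were checked on simulated data. Alternatives were stricter cluster sets, other measures of density, another overlap, other scales and each replicate left out, and, chosen after seeing the data, the MATR3 gene proper alone, intron clusters alone and length-matched backgrounds. Python 3.11.15, pandas 2.3.3, numpy 2.4.6 and matplotlib 3.10.9 were used.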

Additional observations from a re-analysis of the deposited data

Results flagged for a closer look

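Inside the MATR3 span, on the same strand, 1 cluster carried another name: SNORA74A, a small nucleolar RNA of the SNHG4 host gene, with 14 reads in replicate 3 and none listed in the other two libraries. It is given here because it enters no comparison and exceeds 3 reads, the most that a count of 0 is taken to allow. Since every listed cluster has at least 4 reads, any cluster would pass that limit.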

How the results depend on the processing

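Of 100 values recomputed for the 11 differences, 90 kept their direction and 10 turned, and the causes were not tested. With 3 libraries no test could pass 0.05 under any setting. Density of MATR3 minus RAVER1 turned to 0.853 with at least 3 conversion locations, to 0.201 with distinct reads and to 1.51 without replicate 2. Intron share of MATR3 minus its partners turned to -4.73 without replicate 2 and to -0.558 with the MATR3 gene proper. Recurrence of MATR3 minus its partners turned to 3.85 when clusters under the library's median read count were left out, to 1.47 with at least 3 distinct reads, to 2.17 with an overlap of 50% and to 8.71 with the gene proper. Recurrence of the 6 genes minus other genes turned to 1.60 without replicate 1. Leaving out each replicate in turn gave ranges of -12.53 to -9.76 (MATR3 minus PTBP1), 1.64 to 3.47 (PTBP2), 4.35 to 6.498 (PTBP3), -1.41 to 1.51 (RAVER1) and 4.85 to 6.83 (RAVER2) RPM per kb. In percentage points they were -4.73 to 11.95 for intron share, -4.10 to -1.37 for recurrence of MATR3, -1.69 to 1.60 for recurrence of the 6 genes, -1.33 to -0.758 for conversion, -2.86 to -0.664 for C and T content and 1.05 to 3.05 for ATCTT. With a replicate left out a cluster had fewer libraries to overlap, so these recurrence values are not on the scale of the main ones. There is only 1 group, so no replicate numbers pair samples across groups. Every difference was taken within a library, which was the unit of pairing. The cluster tables hold no sites under 4 reads.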
